A study of Mus musculus with 12 samples.

Results

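A group of 53 interferon response genes was examined in mouse LSK cells, the lineage-negative, Sca-1+ KIT+ fraction of the bone marrow that holds hematopoietic stem cells and early progenitors. The genes were taken by name from a table of 35999 genes, and they comprise interferon-induced genes together with the IRF and STAT factors that drive them. RNA-seq had been made from LSK cells of 12 mice, with 1 library per mouse: 6 labelled WT and 6 labelled Fancg KO, that is Fancg-/-, a mouse lacking a Fanconi anemia core complex gene in every cell of the body. Libraries carry the replicate numbers 2 to 7 in each genotype. The labels do not say that mice were paired by number, so a same-numbered pair below is a match that the labels do not explain. Same-numbered libraries did deviate together more than others (mean correlation 0.20, against -0.04 between different numbers). The main fit does not use the number. The labels name no treatment of the mice, and they give no age, sex or strain, so the comparison is of the genotype at baseline as far as the labels say. The values are the authors' normalized values per gene and library, called signal here, and 45 of the 53 genes reached the mean signal of 10 over the 12 libraries that was required for testing, among 8887 genes in all. Each library rested on roughly 1235109 to 2471417 reads, so a gene near that minimum was measured with few reads.

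Several features of the libraries bear on what follows. Fancg itself had a signal of 4.76 to 24.1 in the WT libraries and 4.46 to 14.5 in the KO libraries, with overlapping groups (difference of -0.20 on the log2 scale, two-sided exact permutation test, p = 0.636, n = 6 per group). At 3.16 to 22.3 reads per library, Fancg was too low to serve as a check of the labels, and residual transcript of a disrupted allele would be counted as Fancg. Kit was high, at 283 to 435, and Cd34 stood at 528 to 728, whereas Ly6a, which encodes Sca-1, reached only 4.84 to 17.4. Transcripts of 4 Y-linked genes were low in WT replicate 3 (summed signal 26.6) and KO replicate 7 (49.7) and ran from 189 to 435 elsewhere. Lead results are therefore also given without this pair of libraries. KO replicate 4 stood apart for several interferon genes and is described with them.

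Interferons are cytokines that put cells into an antiviral state. Cytosolic sensors of foreign RNA or DNA switch on interferon genes through IRF3 and IRF7. Secreted type I interferon then acts through the receptor IFNAR, the kinases JAK1 and TYK2, and a complex that contains STAT2 and IRF9 and binds a DNA element called ISRE. Type II interferon acts through the receptor IFNGR and on an element called GAS. Hematopoietic stem cells are known to respond to interferon by leaving quiescence, and they keep a part of the interferon-induced genes switched on without any infection.

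The elements through which interferon acts were looked for, as short runs of letters, in the promoters of the genes. RefSeq promoter sequences on GRCm38.p6, running from 250 bases before to 50 bases after each start, were at hand for 41 of the 53 genes. ISRE was searched as 2 copies of GAAA separated by any 2 bases, and GAS as TTC and GAA separated by any 3 bases, on both strands. The windows below show 6 genes, namely the 3 genes that differed most clearly between the genotypes and 3 textbook interferon targets, each written 5′ to 3′ on the strand of its gene with the matching letters in capitals. The Bst2 window lies at chr8:71537583-71537612 (minus strand), that of Gbp2 at chr3:142620594-142620623 (plus strand), and that of Samhd1 at chr2:157135313-157135341 (minus strand). The Isg15 window lies at chr4:156200871-156200900 (minus strand), that of Ifit1 at chr19:34640775-34640804 (plus strand), and that of Irf1 at chr11:53769914-53769942 (plus strand).
Bst2: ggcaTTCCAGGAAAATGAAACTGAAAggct
Gbp2: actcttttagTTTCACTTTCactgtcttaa
Samhd1: acaccaccctTTCGGAGAAacacaagggc
Isg15: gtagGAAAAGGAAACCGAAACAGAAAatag
Ifit1: caggcttcagTTTCACTTTCcagtctcagt
Irf1: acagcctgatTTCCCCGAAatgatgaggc

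The Bst2 window held 2 overlapping ISRE matches and 1 GAS match that overlaps the first of them. The Isg15 window held 3 overlapping ISRE matches, those of Gbp2 and Ifit1 held 1 each, read on the opposite strand, and those of Samhd1 and Irf1 held a GAS match. ISRE letters were present in the promoters of 20 of the 41 genes (48.8%), against 1079 of all 27025 genes with a listed promoter (3.99%). GAS letters were present in 13 of the 41 (31.7%), against 2582 of all genes (9.55%). At least 1 of the elements was found in 26 genes, and both in 7. A match shows the letters alone, and binding or response to interferon was not tested. Where no match was found, only the absence of these letters from this window is shown.

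**Figure D1:**
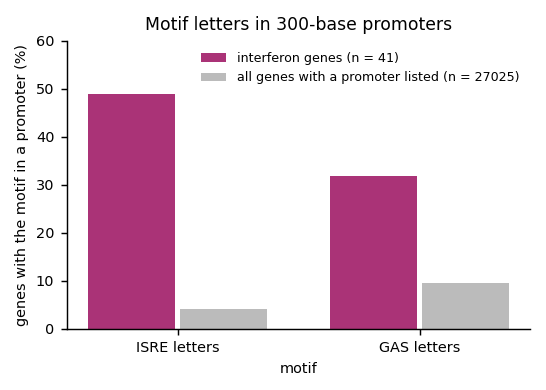
Share of genes, in percent, whose promoter (250 bases before to 50 after the start) holds the letters of ISRE or GAS on either strand, for 41 interferon genes and for all 27025 genes with a listed promoter. ISRE letters were in 48.8% of the interferon genes and 3.99% of all genes, and GAS letters in 31.7% and 9.55%.

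Comparing KO with WT LSK cells asks whether loss of Fancg changes the baseline of this program. No interferon gene passed the test after adjustment over the 8887 genes tested (limma, smallest Benjamini-Hochberg adjusted p of the group 0.9996), and neither did any other gene, although 326 genes (3.67%) had an unadjusted p under 0.05. Among the 45 interferon genes tested, 3 (6.67%) had an unadjusted p under 0.05. Samhd1 and Gbp2 were lower in KO, beside a background of 150 genes (1.69%) on that side, and Bst2 was higher, beside 176 genes (1.98%). The log2 fold change was below 0 for 30 of the 45 genes and above 0 for 15, against 49.3% below 0 among all genes tested. Its median was -0.09, against 0.003 for all genes. Without WT replicate 2 the log2 fold change was below 0 for 24 of the 45 genes, against 48.3% of all genes, and the median was -0.05. The SD of a single gene within a genotype had a median of 0.43 on the log2 scale for these genes and 0.41 for all genes.

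The 95% intervals, unadjusted for the number of genes, show how large the change of each tested gene could have been. For 39 of the 45 genes the interval of the fold change lay within a 2-fold change in either direction. For the other 6, namely Oas2, Bst2, Gbp2, Ifi44, Irf7 and Dhx58, it reached beyond. The 8 genes below the signal minimum have no interval. No interferon gene had KO values that all lay outside the WT values. Only 8 of all genes tested (0.09%) showed such a separation, so its absence among 45 genes says nothing about this group. Signal comes from sorted cells in bulk, so a lower value from fewer cells of a type cannot be told apart from less RNA per cell. Some markers of the cells in the sort differed between the genotypes at an unadjusted p under 0.05, and none after adjustment (limma). Itga2b, a megakaryocyte-lineage integrin, was 11.8 to 19.2 in WT and 19.2 to 45.4 in KO, higher in KO in all 6 same-numbered pairs (log2 fold change 0.72, limma, unadjusted p = 0.006, adjusted p = 0.9996). The 3 megakaryocyte markers summed to 15.5 to 52.1 in WT and 24.6 to 69.3 in KO, with Pf4 and Gp9 at 0 in 2 libraries each. Flt3, a receptor of multipotent progenitors, was 363 to 646 in WT and 178 to 523 in KO (log2 fold change -0.51, limma, unadjusted p = 0.042). Of the 8 LSK markers, Procr was too low to test. Among the rest only Flt3 had an unadjusted p under 0.05, beside 3.67% of all genes tested. The part of these shifts in the interferon values was not tested.

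**Figure D2:**
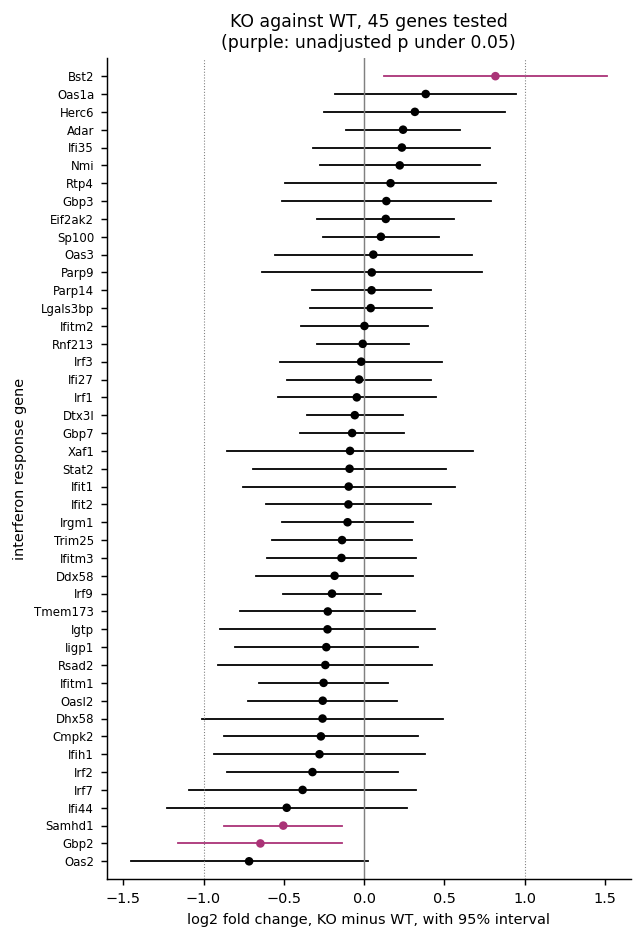
Log2 fold change of KO against WT for the 45 interferon genes tested, with 95% intervals from limma (n = 6 libraries per genotype), ordered from the highest to the lowest. Intervals of Bst2, Samhd1 and Gbp2 (purple, unadjusted p under 0.05) leave out 0, and dotted lines mark a 2-fold change.

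The sensors come first in the pathway, and all 4 of the sensors tested had a fold change below 0, with a median of -0.24 and none with an unadjusted p under 0.05. Ddx58, which encodes the RNA sensor RIG-I, had a signal of 41.2 to 66.9 in WT (median 53.1) and 31.3 to 82.8 in KO (median 43.7), a log2 fold change of -0.18 ± 0.23 (SE). Ifih1, which encodes the long double-stranded RNA sensor MDA5, ran from 33.6 to 104 in WT and from 22.1 to 81.0 in KO, with medians of 45.1 and 43.0. For both RNA sensors the lowest value of all libraries was in KO. The highest Ddx58 value (82.8) was also in KO, in replicate 4, whereas the highest Ifih1 value (104) was in WT. The groups overlapped for both genes. Tmem173, which encodes the DNA-sensing adaptor STING, had medians of 49.6 in WT and 44.4 in KO, and Dhx58, which encodes the RIG-I-like regulator LGP2, had 12.1 and 8.02. Zbp1, a sensor of Z-form nucleic acid, was below the minimum, and its largest value was 39.1 in KO replicate 4 against 0 to 16.1 in WT.

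Upstream of the interferon response genes, 24 further genes of the pathway were looked at, from interferons and receptors to kinases and regulators, and 17 were tested. Of these, 11 (64.7%) were below 0 and 6 above, against 49.3% below 0 among all genes tested, with a median of -0.04. Ifnb1 and Ifng, which encode interferon beta and gamma, were listed at 0 in all 12 libraries. Tlr7, the endosomal receptor for single-stranded RNA, was the only gene of the 17 (5.88%) with an unadjusted limma p under 0.05. Among all genes tested, 3.67% had such a p. The Tlr7 signal was 7.13 to 38.4 in WT (median 15.2) and 2.51 to 14.3 in KO (median 8.78), and it was lower in KO in all 6 same-numbered pairs. The log2 fold change was -1.07 ± 0.41 (SE, limma, unadjusted p = 0.019, adjusted p = 0.9996), and the groups overlapped. By the two-sided exact permutation test (n = 6 per group), Jak1, the kinase shared by both receptors, had p = 0.011 (medians 31.1 in WT and 27.8 in KO), although its limma p was 0.168 unadjusted. Tlr3, a receptor for double-stranded RNA, was lower in KO (medians 1.07 in WT and 0 in KO), with an exact permutation p of 0.035. It was too low for the fit (0 to 1.99), at no more than 2 reads per library and 7.80 in all. These permutation p-values are unadjusted and come from the 24 genes looked at. Ifnar1, a chain of the type I receptor, had medians of 49.3 in WT and 34.5 in KO (log2 fold change -0.37, limma, unadjusted p = 0.121), and Ifnar2, the other chain, had 52.1 and 42.8.

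All 6 of the IRF and STAT factors in the group had a log2 fold change below 0, with a median of -0.15, but none had an unadjusted p under 0.05. Irf9, the DNA-binding part of the type I complex, was the most even of them, at 61.4 to 73.1 in WT (median 65.0) and 45.5 to 73.7 in KO (median 57.6). KO replicates 2 and 3 lay lowest and KO replicate 7 lay highest of all libraries, so the groups overlapped (log2 fold change -0.20 ± 0.14, limma, unadjusted p = 0.184). Irf7, the factor that amplifies type I interferon, had a signal of 5.91 to 18.5 in WT (median 10.7) and 5.53 to 17.8 in KO (median 7.21). Its log2 fold change was -0.38 ± 0.33 (limma, unadjusted p = 0.267), and its one high KO value, 17.8, belonged to KO replicate 3. Irf2, which represses ISRE genes, ran from 19.95 to 47.7 in WT and from 13.8 to 34.9 in KO (medians 30.8 and 28.4, log2 fold change -0.32, limma, unadjusted p = 0.220). Irf2 values overlapped, with the highest values in WT and the lowest in KO.

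The remaining factors differed little. Stat2, a part of the type I complex, had medians of 14.4 in WT and 13.5 in KO (log2 fold change -0.09, 95% interval -0.69 to 0.51). Irf1, induced through GAS, had medians of 28.6 and 27.6 (log2 fold change -0.05, 95% interval -0.54 to 0.45). Irf3, the factor downstream of the sensors, had medians of 24.5 and 24 (log2 fold change -0.02, 95% interval -0.52 to 0.48). Each of these intervals spans 0 and reaches to -0.50 or lower. The signs of all 3 turned when single libraries were left out.

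The RNA-binding and nucleotide effectors act on viral RNA or on the nucleotide pool, and 7 of the 11 tested were lower in KO and 4 higher, with a median log2 fold change of -0.10. Samhd1, a dNTP hydrolase that limits the nucleotides viruses can use, lies on chr2:157097533-157135265 (minus strand, GENCODE M21 on GRCm38) and had the smallest p of the group. Its signal was 70.1 to 135 in WT (median 95.2) and 51.1 to 82.6 in KO (median 71.8). In KO every value was below 5 of the 6 WT values, and the exception was WT replicate 2 at 70.1. The means were 101.2 ± 23.5 (SD, n = 6) and 70.3 ± 10.8 (SD, n = 6), and Samhd1 was higher in KO in 1 of 6 same-numbered pairs. Its log2 fold change was -0.50 ± 0.17 (SE, 95% interval -0.87 to -0.14, limma, unadjusted p = 0.010, adjusted p = 0.9996), with p = 0.011 in the two-sided exact permutation test. When libraries were rescaled to equal totals without the 15 highest genes, the change was -0.47 and the unadjusted p 0.067 (limma).

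Oas2, an oligoadenylate synthetase that activates RNase L on double-stranded RNA, had the largest negative fold change of the 45 genes tested but a wider spread. Its signal was 12.8 to 37.6 in WT (median 22.5) and 4.96 to 24.6 in KO (median 16.6). WT replicates 5 and 7 were highest, KO replicate 4 was lowest, and the groups overlapped. The log2 fold change was -0.72 ± 0.35 (95% interval -1.45 to 0.02, limma, unadjusted p = 0.056). It was -0.45 without KO replicate 4 (limma, unadjusted p = 0.142) and -0.96 without WT replicate 3 and KO replicate 7 (limma, unadjusted p = 0.019).

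Related enzymes had fold changes on either side of 0. Oas1a, whose sequence is largely shared with Oas1g (68.7% of its 31-base stretches), so that reads may be split between them, ran from 12 to 39.8 in WT and from 21.0 to 37.7 in KO. Its medians were 20.7 and 26.9, and its log2 fold change was 0.38 ± 0.26 (limma, unadjusted p = 0.168). Oas3 had medians of 18.9 and 17.6, and Oasl2, a synthetase-like protein, had 20.4 and 15.8 (log2 fold changes 0.06 and -0.26).

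Adar, which edits adenosine to inosine in double-stranded RNA, had a signal of 53.8 to 83.8 in WT (median 72.9) and 59.6 to 116 in KO (median 83.9). It was higher in KO in 5 of 6 same-numbered pairs, with overlapping groups and a log2 fold change of 0.24 ± 0.17 (limma, unadjusted p = 0.169). Part of the Adar exons (16.8%) overlaps the antisense gene Chrnb2, and strand was not stated. Eif2ak2, which encodes the double-stranded RNA kinase PKR, had medians of 13.9 and 16.0. Ifit1 and Ifit2, which bind foreign mRNA, had medians of 16.4 and 17.1, and of 19.0 and 17.6, in WT and KO respectively. Rsad2, which encodes viperin, and its neighbour Cmpk2, a nucleotide kinase, both lay at a median of about 15 in WT (15.8 and 14.7) and lower in KO (13.3 and 12.7), well within their spread.

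The membrane restriction factors act at the cell surface and in endosomes, and their log2 fold changes were above 0 for 2 genes and below 0 for 2. Bst2, which encodes tetherin, the protein that holds budding virions at the cell surface, lies on chr8:71534255-71537456 (minus strand). Its signal was 5.25 to 10.4 in WT (median 7.83) and 7.61 to 35.5 in KO (median 13.3). KO replicates 5, 6 and 7 (12.6, 14 and 15.7) and replicate 4 (35.5) were above every WT library, and KO replicates 2 and 3 were within the WT range. The means were 7.68 ± 1.74 (SD, n = 6) and 15.9 ± 10.05 (SD, n = 6). The log2 fold change was 0.82 ± 0.33 (SE, 95% interval 0.12 to 1.51, limma, unadjusted p = 0.024, adjusted p = 0.9996), with p = 0.019 in the two-sided exact permutation test. Without KO replicate 4 it was 0.56 (limma, unadjusted p = 0.066), without WT replicate 4 it was 0.73 (limma, unadjusted p = 0.052), and without WT replicate 3 and KO replicate 7 it was 0.81 (limma, unadjusted p = 0.050), so the low p rested on single libraries.

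The 3 Ifitm genes, whose proteins block virus entry from endosomes, differed less. Ifitm1 ran from 40.6 to 64.8 in WT (median 59.0) and from 29.4 to 67.5 in KO (median 48.2), with a log2 fold change of -0.25 ± 0.19 (limma, unadjusted p = 0.202). Ifitm3 ran from 32.3 to 62.7 in WT (median 57.8) and from 32.7 to 70.8 in KO (median 47), with a log2 fold change of -0.14 ± 0.22 (limma, unadjusted p = 0.528). Ifitm2 ran from 49.8 to 89.2 in WT (median 81.2) and from 52.3 to 100.8 in KO (median 77.4), with a log2 fold change of 0.00 (95% interval -0.39 to 0.40). For each of the 3 genes the highest value of all libraries was in KO, and the groups overlapped almost fully. Ifitm2 shares 55.5% of its 31-base stretches with other genes, and Ifitm3 20.5%, so their levels are uncertain.

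**Figure D3:**
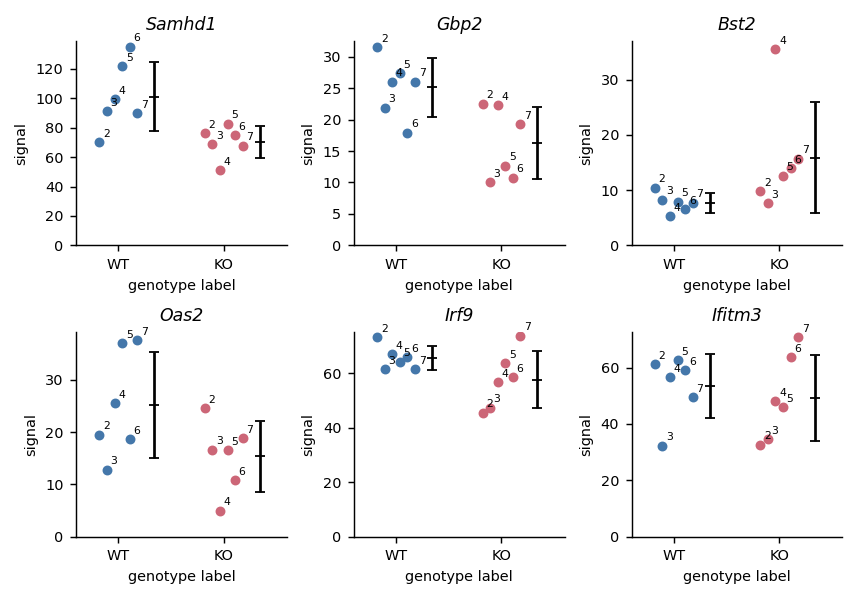
Signal (authors' normalized values, linear axis from 0) of 6 interferon genes in each of the 12 libraries, numbered by replicate, with the mean and SD per genotype (n = 6). Samhd1 and Gbp2 lay lower in KO and Bst2 higher, with 1 Bst2 value of 35.5 far above the rest, and Oas2, Irf9 and Ifitm3 overlapped more.

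Interferon-induced GTPases attack the vacuoles of intracellular pathogens, and 5 of the 6 tested were lower in KO, with a median log2 fold change of -0.17. Gbp2, a guanylate-binding protein induced mainly by type II interferon, lies on chr3:142620602-142638008 (plus strand). Its signal was 17.9 to 31.5 in WT (median 26.0) and 10.1 to 22.5 in KO (median 16.0). KO replicates 3, 5 and 6 lay below every WT library, KO replicates 2, 4 and 7 lay within the WT range, and Gbp2 was lower in KO in all 6 same-numbered pairs. The means were 25.1 ± 4.68 (SD, n = 6) and 16.3 ± 5.77 (SD, n = 6). The log2 fold change was -0.65 ± 0.24 (SE, 95% interval -1.16 to -0.14, limma, unadjusted p = 0.017, adjusted p = 0.9996), with p = 0.026 in the two-sided exact permutation test.

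The difference between Gbp2 and the other guanylate-binding proteins was not tested. Gbp3 had medians of 11.2 in WT and 12.1 in KO (log2 fold change 0.14, 95% interval -0.51 to 0.79), and Gbp7 had 102 and 92.8 (-0.07, 95% interval -0.40 to 0.25). Of the immunity-related GTPases, Igtp had medians of 20.4 and 12.9, Irgm1 68.0 and 60.2, and Iigp1 22.0 and 18.2, with log2 fold changes of -0.23, -0.10 and -0.24. None of these had an unadjusted p under 0.05, and Igtp and Gbp7 share 15.9% and 14.7% of their 31-base stretches with other genes.

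Ubiquitin-like, ubiquitin ligase and PARP genes were split evenly, with 3 of the 6 tested lower in KO and 3 higher and a median log2 fold change of 0.02. Rnf213, a giant ubiquitin ligase and the gene of the group with the highest signal, had 655 to 846 in WT (median 755) and 665 to 973 in KO (median 717), and its log2 fold change was -0.01 (95% interval -0.30 to 0.28). Its within-genotype SD, 0.17 on the log2 scale, was the smallest of the group. Herc6, the main ligase for ISG15 in mouse, ran from 15.5 to 34.7 in WT (median 26.6) and from 19.6 to 66.7 in KO (median 30.2). Herc6 values overlapped, with the highest in KO replicate 4, and 13.8% of its 31-base stretches are shared with other genes (log2 fold change 0.32 ± 0.26, limma, unadjusted p = 0.251). Trim25, the ligase that activates RIG-I, had medians of 168 and 153, and Parp14 had 78.5 and 76.1. Dtx3l and Parp9, partners in a ligase complex that lie head to head and overlap in their exons, had medians of 116 and 118, and of 17.4 and 18.7.

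The 8 remaining genes, of varied function, leaned slightly upward, with 5 above 0 and 3 below and a median log2 fold change of 0.07. Ifi44, induced strongly by type I interferon, had a signal of 10.4 to 34.05 in WT (median 23.0) and 6.69 to 34.2 in KO (median 14.5). Ifi44 varied most within genotypes of all the genes tested in the group (SD 0.68), and its log2 fold change was -0.48 ± 0.35 (limma, unadjusted p = 0.189). Without KO replicate 4 it was -0.71 (limma, unadjusted p = 0.045). Ifi35 ran from 11.0 to 24.1 in WT and from 15.2 to 37.3 in KO (medians 19.1 and 19.3), and Nmi, its binding partner, from 11.6 to 17.7 and from 12.2 to 27.8 (medians 16.4 and 15.8). Both had a positive log2 fold change (0.23 and 0.22, limma, unadjusted p = 0.378 and 0.357) with near-equal medians. Part of the Ifi35 exons (16.8%) overlaps an antisense gene, so reads of the 2 genes may be mixed. Sp100, a nuclear body protein, had medians of 97.6 and 98.5, and Lgals3bp, a secreted glycoprotein, had 31.9 and 32.5. Ifi27 had 28.6 and 27.3, Xaf1, an antagonist of the apoptosis inhibitor XIAP, 10.7 and 9.58, and Rtp4, a chaperone of membrane receptors, 15.2 and 17.9.

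The 8 genes below the minimum included several that respond most strongly to interferon. Isg15, the ubiquitin-like modifier, had a median of 4.04 in WT and 2.75 in KO, and Usp18, the protease that removes it and damps the receptor, had 7.20 and 4.24. Usp18 showed the smallest p of these genes (difference of -0.65 on the log2 scale, two-sided exact permutation test, p = 0.069, n = 6 per group), with KO values from 1.27 to 5.94 against 2.87 to 8.11. Mx1 and Mx2, dynamin-like antiviral GTPases, went different ways, with medians of 5.52 and 7.91 for Mx1 and of 9.26 and 5.01 for Mx2. Trim21, a cytosolic antibody receptor, had medians of 7.63 and 5.12, and Isg20, an RNA exonuclease, had 5.10 and 5.30. Ifit3 was listed at 0 in 6 libraries and shares 61.8% of its 31-base stretches with Ifit3b, so no fold is given. None of the 8 had an exact permutation p under 0.05. Counting all 53 genes, the KO median lay below the WT median for 37. Among the 45 tested it did so for 32 (71.1%), against 48.2% of all genes tested.

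Levels between genes were compared per kilobase of exon, with the lengths taken from GENCODE M21. Ifitm2 and Ifitm3 were highest on this scale, with mean levels of 119 and 75.8 signal per kb over the 12 libraries, followed by Ifitm1 at 47.6 and Rnf213 at 44.6. Trim21, Usp18 and Mx1 were near the bottom, at levels of 1.85, 1.90 and 2.24 signal per kb, and Ifit3 was lowest at 0.568.

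Genes with and without an interferon element in the promoter had similar medians. The 17 tested genes with ISRE letters had a median log2 fold change of -0.10, and the 20 tested genes whose listed promoter held none had -0.07. For GAS the medians were -0.06 for 12 genes with the letters and -0.10 for 25 without. These differences between groups of genes were not tested.

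As a mean of log2(signal + 1) over the 45 genes, the WT libraries stood at 5.05, 4.95, 4.98, 5.29, 5.01 and 4.88 for replicates 2 to 7, and the KO libraries at 4.85, 4.88, 5.10, 4.79, 4.85 and 5.18. WT replicate 5 was the highest library, KO replicates 2, 3, 5 and 6 lay at about the lowest WT value (4.88) or below it, and KO replicates 4 and 7 lay above 5 of the 6 WT libraries. The KO mean was lower by 0.08, whereas the mean over all genes tested was higher by 0.009. The difference within a number ran from -0.50 for replicate 5 to 0.31 for replicate 7, with 4 of the 6 below 0. KO replicate 7, low in Y-linked transcripts, was the KO library with the highest interferon level. Its mean over all genes tested, 5.38, was also the highest of the 12 libraries. WT replicate 3, the other library low in Y-linked transcripts, stood at 4.95 for the interferon genes, below 4 of the other WT libraries.

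**Figure D4:**
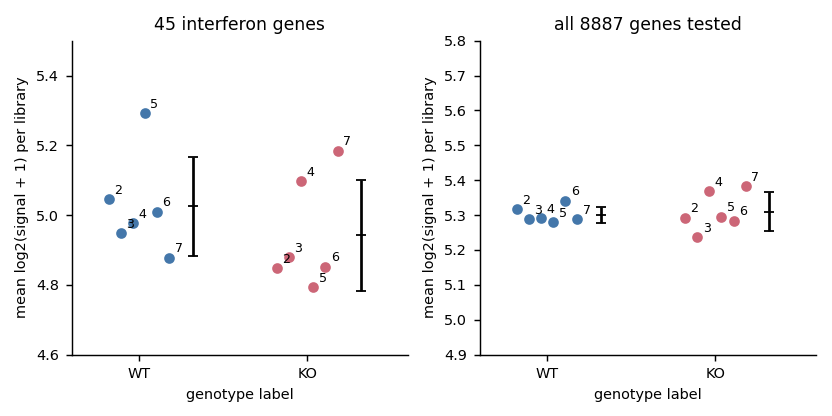
Mean log2(signal + 1) per library over the 45 interferon genes tested (left) and over all 8887 genes tested (right), numbered by replicate, with the mean and SD per genotype (n = 6) and axes of equal span. On the left 4 KO libraries lie between 4.79 and 4.88 and KO replicates 4 and 7 at 5.10 and 5.18, and on the right the libraries lie closer together.

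By role, the mean level of the sensors was 5.13 ± 0.40 (SD, n = 6) in WT and 4.89 ± 0.27 in KO, on the log2 scale. For the transcription factors it was 4.71 ± 0.16 and 4.54 ± 0.23, and for the GTPases 5.00 ± 0.20 and 4.80 ± 0.25. The ubiquitin-like and PARP genes stood at 6.51 ± 0.23 and 6.54 ± 0.13, and the membrane factors at 5.23 ± 0.16 and 5.34 ± 0.32. In each role the groups' ranges overlapped.

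KO replicate 4 did not move evenly up or down. It held the highest value of the 12 libraries for 12 of the 45 genes (26.7%, against 13.95% over all genes tested) and the lowest for 8 (17.8%, against 10.1%). Bst2, Herc6 and Gbp3 were highest there (35.5, 66.7 and 26.2), and Oas2, Ifitm1 and Ifit1 were lowest (4.96, 29.4 and 6.25). Zbp1, which is not among the 45, was also highest there (39.1). KO replicate 7 held the highest value for 8 genes (17.8%, against 14.9%), and KO replicates 3 and 5 for none.

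Markers of other cell types also stood apart in KO replicate 4. The 6 T and NK cell markers summed to 84.4 there and to 29.6 to 57.4 in the other 11 libraries, with 4 of the 6 at their highest, mainly Nkg7 at 75.0, while Cd3e and Cd3d were at 0. The 5 B cell markers summed to 299 against 38.2 to 202, of which Ebf1 made up 288, and Ms4a1 was at 0. The 8 monocyte and macrophage markers summed to 212 against 89.2 to 289, with Csf1r at its highest (70.3) and Adgre1, Cd14 and Fcgr1 at 0. The plasmacytoid dendritic cell markers other than Bst2 summed to 82.4 against 63.5 to 110.1, with Siglech at 5.82. The part of such cells in the values of Bst2, Zbp1 and Herc6 was not tested. Without this library, 3 interferon genes had an unadjusted p under 0.05 (limma), all of them lower in KO, namely Samhd1, Gbp2 and Ifi44, beside a background of 170 genes (1.91%) on that side, and the median log2 fold change was -0.12.

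**Figure D5:**
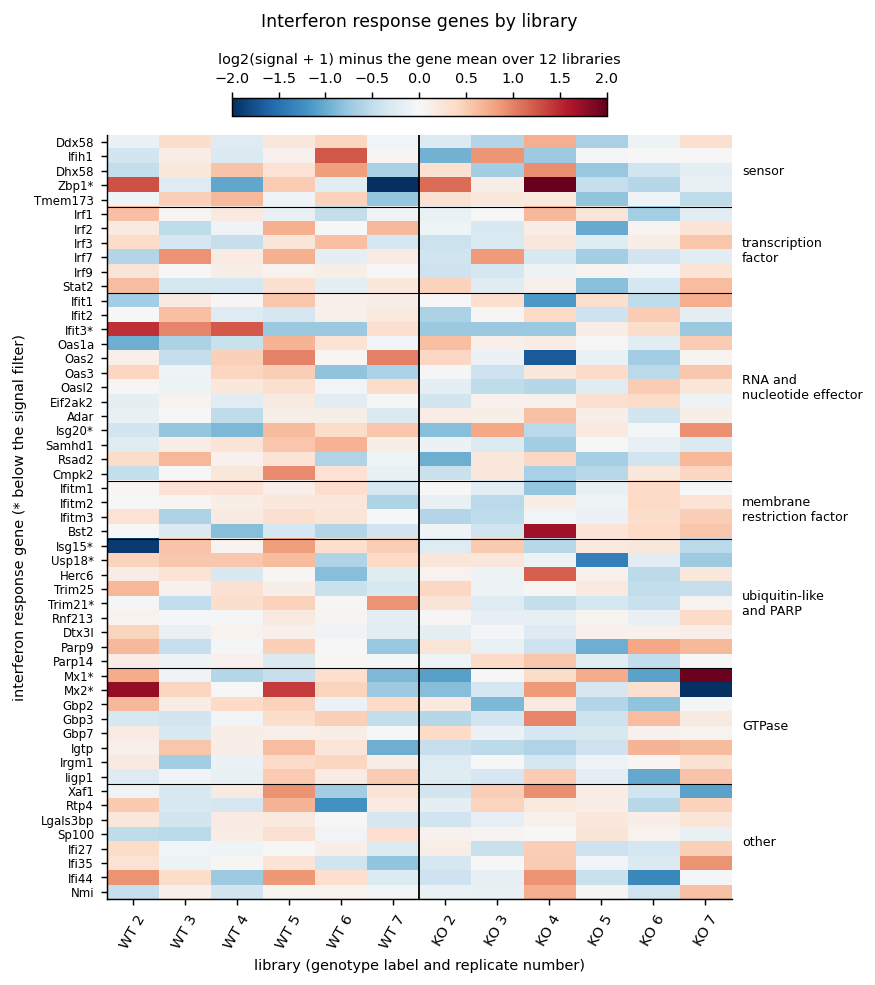
Log2(signal + 1) of all 53 interferon genes in each library, minus the mean of the gene over the 12 libraries, ordered by role (colours end at 2 in either direction, and asterisks mark the 8 genes below the signal minimum). No row splits cleanly at the line between WT and KO, and the strongest colours lie in single libraries such as KO replicate 4 for Zbp1 and Bst2.

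Without WT replicate 3 and KO replicate 7, both low in Y-linked transcripts, 4 interferon genes had an unadjusted p under 0.05 (limma), all lower in KO: Samhd1, Gbp2, Oas2 and Irf2. The background on that side was then 224 genes (2.52%). The median log2 fold change of the group was -0.17, and 32 of the 45 genes were below 0, against 52.4% of all genes. Samhd1 stood at -0.52 and Gbp2 at -0.74 in this comparison. Samhd1 and Gbp2 kept an unadjusted p under 0.05 and their direction whichever single library was left out, with log2 fold changes from -0.60 to -0.41 and from -0.75 to -0.53.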

How the data were processed

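RNA-seq of LSK cells from 12 mice (6 WT, 6 Fancg KO) was used, and the human experiments were not analysed here. The authors deposited 1 table of normalized signal, whose name and values point to estimated counts divided by a size factor per library. Processing notes name kallisto without a version. The methods describe kallisto and Sleuth with a human genome, and a mouse build or annotation is not given in the sources used here. All columns were matched to libraries by their labels.

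No rescaling was applied. A mean signal of 10 or more was required, and tests were made on log2(signal + 1) with limma 3.58.1 (eBayes with trend, two-sided, Benjamini-Hochberg adjustment, R 4.3.3), KO minus WT, without covariates. Whole reads could not be recovered, so no count test was run and depth is approximate. The fit was tested on simulated data. Single genes were also compared by exact permutation over the 924 divisions of the libraries. A fold change on the log2(signal + 1) scale understates changes of low genes. P-values measure the spread between mice as labelled. Positions and exon lengths come from GENCODE M21 (GRCm38), and promoters from RefSeq (GRCm38.p6).

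The members and lists were chosen with earlier results of these data known. Full statistics are given for members with an unadjusted p under 0.05, the 6 with the smallest p in each direction, the IRF and STAT factors and the 4 highest per kilobase. Other members, Oas-family and marker genes are given with medians or ranges. Alternatives were pseudocounts of 0.5 and 5, no filter or a minimum of 50, quantile normalization, rescaled totals, no trend, a replicate block and each library left out. The fit without WT replicate 3 and KO replicate 7 was added after the data were seen.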

Additional observations from a re-analysis of the deposited data

Results flagged for a closer look

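On the log2(signal + 1) scale, in groups of 6 libraries, a value was flagged when its gap to the nearest other library took up more of the range of its group than the 95% critical value of Dixon allows. Of 108 groups, 8 held such a value, and chance alone would give about 5.4. The values that follow are on the linear scale. Ifih1 was high in WT replicate 6, at 104, where the remaining WT libraries had 33.6 to 48.4. Irf7 was high in KO replicate 3, at 17.8 against 5.53 to 7.89. Ifitm2 was low in WT replicate 7, at 49.8 against 76.6 to 89.2, and Igtp was low in the same library, at 8.62 against 19.3 to 28.0. Ifitm3 was low in WT replicate 3, at 32.3 against 49.6 to 62.7, as was Gbp7, at 75.7 against 94.9 to 105. Usp18 was low in WT replicate 6, at 2.87 against 6.67 to 8.11. Isg15 was listed at 0 in WT replicate 2 and at 2.94 to 5.76 in the rest of WT.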

How the results depend on the processing

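Across the 20 genes with full statistics, 407 values under alternative settings were computed, of which 370 kept their direction and their side of an unadjusted p of 0.05, 4 lost it, 8 gained it and 25 changed sign. The number of genes with an unadjusted p under 0.05 was 836 of 21536 without a filter and 91 of 3119 at a minimum of 50, where 14 interferon genes were tested and 1, Samhd1, had such a p. Quantile normalization turned Ifitm2 (-0.0261) and Rnf213 (0.0629), and rescaled totals turned Irf3 (0.018) and Rnf213 (0.0291). Leaving out WT replicate 3 and KO replicate 7 turned Ifitm2 (-0.0468) and gave -0.2 for Irf3, -0.302 for Stat2 and -0.0959 for Rnf213. With single libraries left out, the log2 fold change ran from -0.18 to 0.0856 for Irf1, from -0.13 to 0.0998 for Irf3, from -0.22 to 0.0684 for Stat2, from -0.0856 to 0.0258 for Rnf213 and from -0.12 to 0.11 for Ifitm2, the number of interferon genes with an unadjusted p under 0.05 from 2 to 4, the number of all such genes from 275 to 383, and the median from -0.13 to -0.05. Oas1a had a p of 0.041 without WT replicate 5 (0.56).

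Same-numbered libraries deviated together weakly, but more than differently numbered ones (mean correlation 0.20 against -0.04, over 0.1 for 4 of 6 numbers). Of the 6 libraries per genotype, 5 WT and 4 KO libraries matched best with their own number. The labels do not say that mice were paired. With the replicate block, 4 interferon genes (Oas2, limma, unadjusted p = 0.047, joining Samhd1, Gbp2 and Bst2) and 476 genes had an unadjusted p under 0.05, and the smallest adjusted p was 0.889 (limma). No adjusted call existed in any setting. Rescaled totals moved the median of all genes to 0.04 and left 27 of 45 interferon genes below 0. Genes near the minimum rest on few reads, so small differences were not detectable at this depth.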
